A study of Mus musculus with 4 samples.

Results

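Genes of cholesterol and fatty acid synthesis were examined in lung T helper 2 (Th2) cells from mice given papain, a protease from papaya that acts as an allergen. The set was chosen by gene symbol and holds 36 genes for sterol synthesis and its control, and for fatty acid synthesis, desaturation, elongation, activation, storage and uptake. Of these, 35 were among the 11883 genes listed in the authors' deposited table. The remaining gene, Scd1, was not listed and was not analysed here. All mice were of the strain C57BL/6, received the chronic papain treatment and carried Gata3(fl/fl), in which Cre recombinase can cut the gene of the Th2 transcription factor GATA3. The control group had this genotype alone (2 samples), and the Klrg1Cre group had the genotype Klrg1Cre Gata3(fl/fl) (2 samples), with a Cre recombinase named for Klrg1, a receptor gene of differentiated lymphocytes. Live lung cells positive for CD4 and T1/ST2, the interleukin-33 receptor, had been sorted. The table's headers call the groups WT and ILC2 deficient, where ILC2 stands for group 2 innate lymphoid cells; here WT was read as control and ILC2 deficient as Klrg1Cre, a link that the labels do not state. No group carried Klrg1Cre without floxed Gata3, so effects of the Cre allele, of Gata3 loss in the sorted cells and of a lack of ILC2 cannot be told apart.

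Cells make cholesterol from acetyl-CoA through mevalonate, squalene and lanosterol. The enzymes of this route are switched on together by the transcription factors SREBP-1 and SREBP-2, which the escort protein SCAP carries out of the endoplasmic reticulum when sterols are scarce and which INSIG proteins hold back when sterols are plentiful. Fatty acid synthesis starts from the same acetyl-CoA, and its product is then desaturated, elongated, activated to acyl-CoA and built into membranes or stored as triglyceride. Activated T cells raise both routes to build membranes, and Th2 cells of inflamed airways also take up fatty acids.

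The values are in CPM (reads of a gene scaled to the library's total), and the table gives only a mean per genotype. Totals of the single libraries, worked out from the steps of these means, came to 26019065 and 14564426 reads in Klrg1Cre, and to 33379572 and 31961572 reads in control. For 18 of the 35 lipid genes, only 1 pair of whole read numbers gave the mean in each group. Their 4 library values are given below; a library is named by its size within its group (larger or smaller), since its sample number is unknown. The other 17 hold fractions of reads, or allowed no single split, in at least 1 group and are given as means. In pairs of values joined by "against", the Klrg1Cre value comes first. Rn45s, the ribosomal RNA precursor, took 67.1% of reads in Klrg1Cre against 51.4% in control in the authors' deposited table. All other listed genes together held 18.2% and 17.8%. The remaining 14.7% of reads in Klrg1Cre and 30.8% in control fell on no listed gene, so the make-up of the libraries differed between the groups. The targeted gene Gata3 had means of 293.9 against 221.4 CPM in the authors' deposited table (unadjusted p = 0.0115, adjusted p = 0.551), and reads from outside the floxed part can remain, so this does not check the labels. The identity of the sorted cells was checked by T cell markers, whose 13 listed members summed to 1671 CPM in Klrg1Cre, against 1664 CPM in control, and Il1rl1, encoding T1/ST2, was listed at 59.1 and 68.0 CPM.

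Promoter sequences are shown for the 3 lipid genes with an unadjusted p below 0.05 between genotypes (Mvk, Elovl5 and Elovl6) and for Hmgcs1, the only gene of the set whose window held the sterol regulatory element searched for. Each runs from 250 bases before to 50 bases after the RefSeq start of the gene, in build GRCm38.p6, which is not the mm9 build of the alignments, and each is on the plus strand. The Hmgcs1 window is chr13:119690101-119690400, the Mvk window chr5:114444019-114444318, the Elovl5 window chr9:77917115-77917414 and the Elovl6 window chr3:129532136-129532435. Capitals mark matches, on either strand, to the sterol regulatory element (TCACNCCAC), the E-box (CACGTG), the CCAAT box (CCAAT) and the GC box (GGGCGG).
Hmgcs1: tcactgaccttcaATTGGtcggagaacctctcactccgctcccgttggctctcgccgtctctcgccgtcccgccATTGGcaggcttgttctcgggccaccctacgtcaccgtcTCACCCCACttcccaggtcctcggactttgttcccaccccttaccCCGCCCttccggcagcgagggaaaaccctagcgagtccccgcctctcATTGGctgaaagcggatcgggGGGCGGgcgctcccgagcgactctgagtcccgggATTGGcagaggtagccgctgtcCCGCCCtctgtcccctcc
Mvk: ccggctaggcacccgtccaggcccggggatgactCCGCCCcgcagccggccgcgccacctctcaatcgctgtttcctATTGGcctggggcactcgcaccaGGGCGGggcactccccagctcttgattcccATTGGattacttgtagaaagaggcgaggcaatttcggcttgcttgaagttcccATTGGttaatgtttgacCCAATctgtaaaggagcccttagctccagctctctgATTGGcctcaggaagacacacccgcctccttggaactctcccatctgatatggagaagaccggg
Elovl5: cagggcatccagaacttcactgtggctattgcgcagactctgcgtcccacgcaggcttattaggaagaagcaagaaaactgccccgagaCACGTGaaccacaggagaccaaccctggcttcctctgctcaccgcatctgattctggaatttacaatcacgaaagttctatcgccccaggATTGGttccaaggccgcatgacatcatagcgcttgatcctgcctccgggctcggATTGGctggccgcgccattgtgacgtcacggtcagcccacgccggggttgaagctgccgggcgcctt
Elovl6: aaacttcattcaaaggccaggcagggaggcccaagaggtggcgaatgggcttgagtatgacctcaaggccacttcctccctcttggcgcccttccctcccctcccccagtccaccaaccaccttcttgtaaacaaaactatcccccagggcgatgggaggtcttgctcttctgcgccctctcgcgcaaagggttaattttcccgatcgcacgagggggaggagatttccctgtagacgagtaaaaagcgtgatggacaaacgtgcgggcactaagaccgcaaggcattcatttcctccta
The sterol regulatory element lies in the Hmgcs1 window with its first base 137 bases before the start. The Mvk window holds 5 CCAAT boxes and 2 GC boxes, the Elovl5 window 1 E-box and 2 CCAAT boxes, and the Elovl6 window none of the 4 motifs. Windows were found for 26 of the 36 genes, 32 windows in all because some genes have several starts. Of these, 21 (65.6%) held a CCAAT box and 25 (78.1%) a GC box, against 37.4% and 35.7% of all 32851 windows of the same length. The E-box was in 6 of the 32 (18.8%), in Dhcr7, Elovl5, Insig1, Plin2 and Scap, against 7.15% of all windows, and the sterol regulatory element in 1 (3.12%) against 1.24%. These are matches of letters, not measured binding.

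No gene of the set passed the authors' test after adjustment. In the authors' deposited table, 0 of 35 lipid genes had an adjusted p below 0.05, as did 0.0589% of all genes, and the smallest adjusted p of the set was 0.427. Without adjustment, 1 gene had a higher mean in Klrg1Cre at p below 0.05 (Mvk) and 2 a lower mean (Elovl5 and Elovl6), where the background was 3.72% of all genes higher and 3.37% lower, or 7.09% in either direction. The median log2 ratio of Klrg1Cre to control was 0.02 for the set and 0.01 for all genes, with 18 genes of the set above 0 and 17 below; of all genes, 49.4% were below. A second test, limma on log2(CPM + 1) of the recovered libraries, also called 0 of the 17 lipid genes it covered (smallest adjusted p = 0.321). It called 0.165% of all 4242 genes in that fit. Limma used the same libraries as the deposited test, and its p-values ranked genes almost identically (Spearman 0.998), so it is not independent of that test. At an unadjusted p below 0.05 it gave 2 lipid genes lower (Elovl5 and Elovl6; 3.61% of all genes) and 0 higher (4.27% of all genes). With 2 samples per group, a gene that missed the threshold may still differ.

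**Figure D1:**
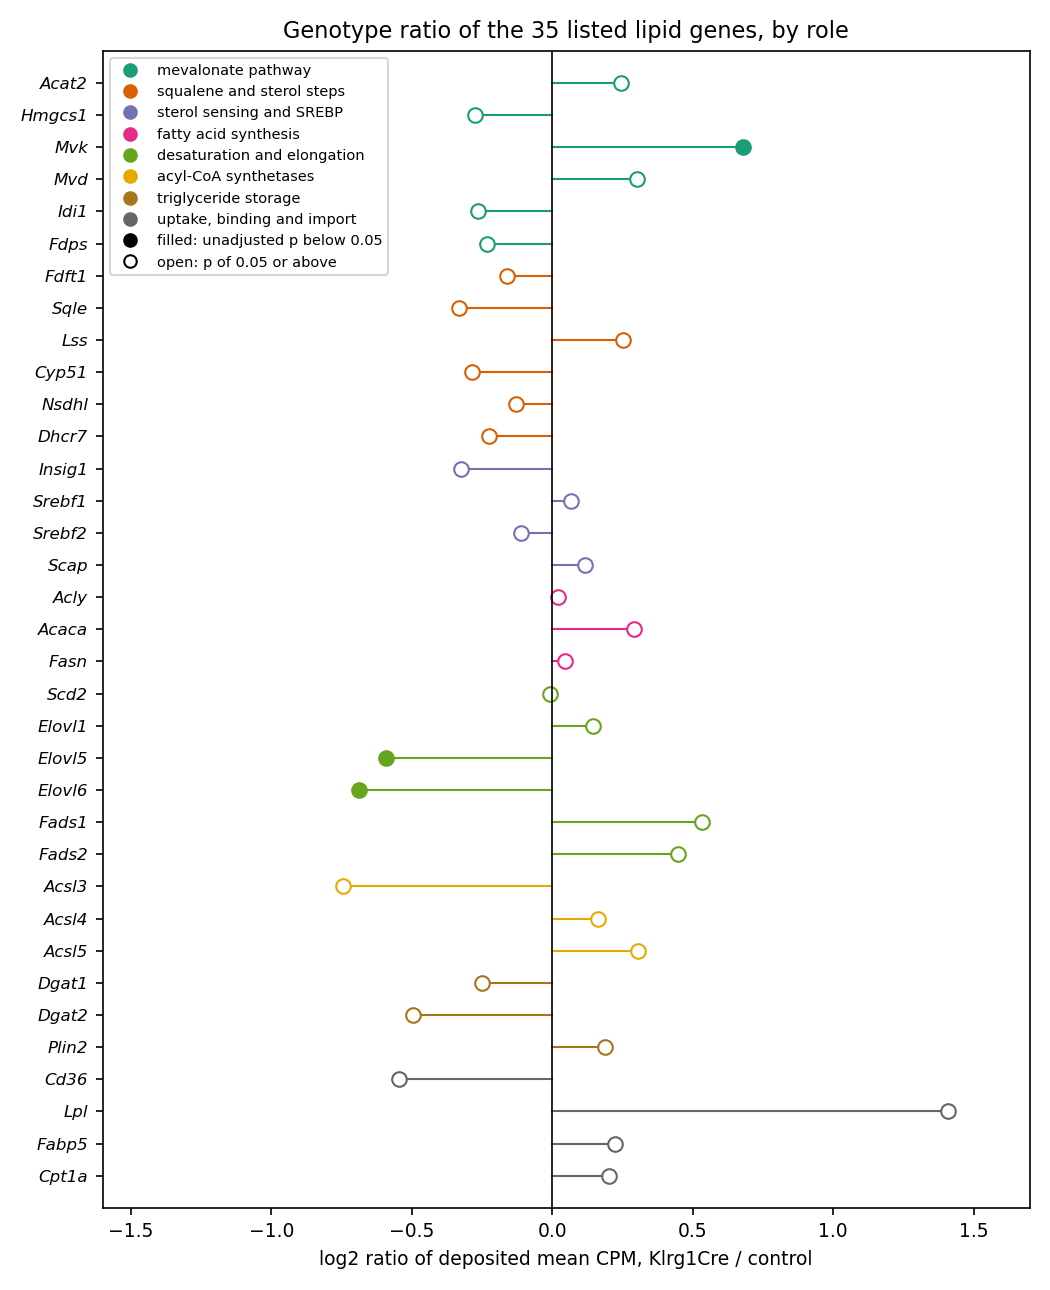
Log2 ratio of the authors' deposited mean CPM, Klrg1Cre over control, for each of the 35 listed lipid genes; colours give the role, and filled points have an unadjusted p below 0.05. Points lie on both sides of 0, with Mvk at 0.68, Elovl5 at -0.59, Elovl6 at -0.69 and Lpl, an open point, at 1.41.

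The first steps of sterol synthesis, which lead to mevalonate and on to farnesyl pyrophosphate, were split between the directions. Mvk, encoding mevalonate kinase, was listed at 5.68 against 3.55 CPM in the authors' deposited table, 1.60-fold higher (unadjusted p = 0.0294, adjusted p = 0.637). Acat2, an acetoacetyl-CoA thiolase gene of the same route, was listed at 11.5 against 9.71 CPM. Mvd, encoding mevalonate diphosphate decarboxylase, was listed at 17.6 against 14.3 CPM. Neither gene passed either threshold. Lower in the same table were Hmgcs1, encoding the synthase of HMG-CoA (13.6 against 16.5 CPM), the isomerase gene Idi1 (7.08 against 8.50 CPM) and Fdps, encoding farnesyl diphosphate synthase (15.9 against 18.7 CPM), with unadjusted p from 0.215 to 0.381. Idi1, the only one of these with recovered libraries, held 7.84 and 6.32 CPM in Klrg1Cre, against 9.44 and 7.57 CPM in control, and its groups overlapped. The median log2 ratio of these 6 genes was 0.01. It was -0.23 over the 5 with a mean of at least 5 CPM, a limit that leaves out Mvk.

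From squalene to cholesterol, 5 of 6 genes had lower means in Klrg1Cre, with a median log2 ratio of -0.19, and none passed a threshold. Over the 4 of them with recovered libraries the median, on the log2(CPM + 1) scale, was -0.24, and it ranged from -0.41 without the larger Klrg1Cre library to -0.09 without the larger control library. Cyp51, encoding the demethylase of lanosterol, held 26.6 and 20.7 CPM in the larger and smaller Klrg1Cre libraries and 31.1 and 26.6 CPM in the control libraries. The highest Klrg1Cre and the lowest control library, at 26.557 and 26.563 CPM, were all but equal; in the authors' deposited table the gene was 1.22-fold lower (unadjusted p = 0.126, adjusted p = 0.764). Sqle, the gene of squalene epoxidase, which is a control point of the route, held 15.3 and 14.1 CPM in Klrg1Cre, against 21.6 and 15.5 CPM in control. Dhcr7, encoding the reductase that makes cholesterol from its last precursor, held 10.6 and 6.45 CPM in Klrg1Cre, against 11.8 and 8.20 CPM in control, so its groups overlapped. Nsdhl, a sterol dehydrogenase gene, stayed close, with 6.03 and 6.66 against 6.89 and 6.98 CPM. Means in the authors' deposited table were 11.6 against 12.99 CPM for Fdft1, encoding squalene synthase, and 12.9 against 10.9 CPM for Lss, the lanosterol synthase gene and the only member of this stretch with a higher mean in Klrg1Cre.

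Of the 4 regulators of the route, 2 had higher and 2 lower means in Klrg1Cre, with a median log2 ratio of -0.02, and none passed a threshold. Insig1, which encodes the protein that holds SCAP and SREBP back and is itself an SREBP target, held 14.4 and 11.5 CPM in Klrg1Cre, against 18.3 and 14.1 CPM in control. The larger Klrg1Cre library thus lay just above the smaller control library, and the authors' deposited table gave a 1.25-fold lower mean (unadjusted p = 0.146, adjusted p = 0.769). Srebf2, encoding SREBP-2, the main activator of sterol genes, held 75.8 and 74.4 CPM against 87.6 and 74.5 CPM. Only the larger control library stood apart. Srebf1, encoding SREBP-1, and Scap had means of 42.1 against 40.2 CPM and 16.9 against 15.6 CPM in the authors' deposited table, with unadjusted p of 0.740 and 0.529.

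For the sterol genes with recovered libraries, libraries of 1 genotype differed from each other about as much as the genotypes did. Of the 7 sterol enzymes and regulators with recovered libraries, 6 were higher in the larger than in the smaller library of both groups, a pattern held by 27.3% of all 5351 recovered genes; the exception was Nsdhl. The mean log2 CPM of these 7 genes was 3.96 and 3.72 in the larger and smaller Klrg1Cre libraries and 4.23 and 3.93 in the control libraries. The step within a group was thus 0.25 and 0.31, and the difference between genotypes -0.24. Each of these 7 genes had a lower mean in Klrg1Cre. Of all 16 sterol enzymes and regulators, 6 had higher and 10 lower means, with a median log2 ratio of -0.14. None of the 6 had recovered libraries, so the difference of -0.24 does not describe the whole group. The larger Klrg1Cre library, at 3.96, lay above the smaller control library, so the groups overlapped. Leaving out the larger control library gave a difference between genotypes of -0.09 and leaving out the smaller control library -0.39; leaving out the smaller Klrg1Cre library gave -0.12 and the larger -0.36. The median gene of all those recovered differed by 0.02 and 0.01 between the larger and smaller libraries, so the step was not shared by genes in general. This pattern was noticed after the values had been seen.

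Among other genes of sterol synthesis, from a list that shares none with the set, 0 of 9 listed had an unadjusted p below 0.05 and the median log2 ratio was 0.02 in the authors' deposited table. Of the 6 with recovered libraries, 4 were again higher in the larger library of both groups. Msmo1, a methyl sterol oxidase gene, held 10.03 and 8.51 CPM against 12.3 and 9.42 CPM. Sc5d, Hsd17b7 and Tm7sf2 showed the same order with smaller steps, while Ebp and Lbr did not.

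**Figure D2:**
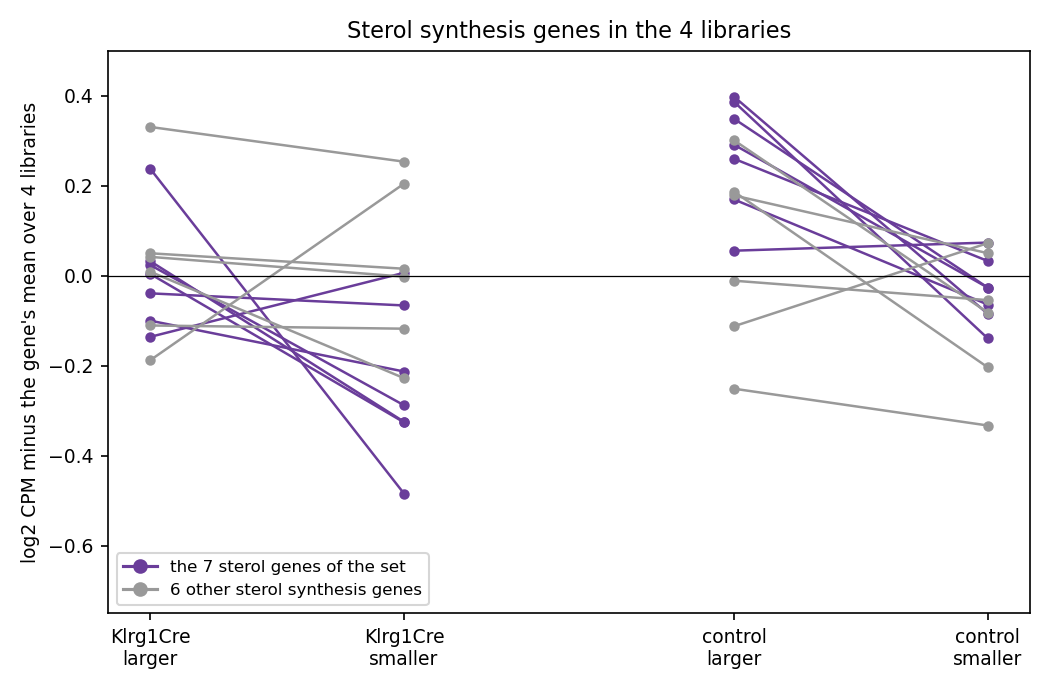
Log2 CPM of each sterol gene minus its own mean over the 4 libraries, for the 7 sterol genes of the set with recovered libraries (purple) and 6 other sterol synthesis genes (grey); a line joins the larger and smaller library of a group. Most lines slope down from the larger to the smaller library in both groups, 6 of 7 in purple and 4 of 6 in grey.

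Genes of fatty acid synthesis itself had close means in both genotypes, and none passed a threshold; the libraries of Acaca and Fasn, the 2 recovered, were spread widely. Acly, encoding the citrate lyase that supplies acetyl-CoA, was listed at 54.0 against 53.3 CPM in the authors' deposited table (unadjusted p = 0.849). Acaca, encoding the acetyl-CoA carboxylase of the committed step, held 6.19 and 1.99 CPM in the larger and smaller Klrg1Cre libraries and 4.49 and 2.19 CPM in control. The larger library was 3.11-fold above the smaller in Klrg1Cre and 2.05-fold in control, so the 1.22-fold difference of the means in the authors' deposited table (unadjusted p = 0.769, adjusted p = 0.962) lay inside this spread. Without the larger Klrg1Cre library its log2 ratio was -0.75 in place of 0.29. Fasn, the fatty acid synthase gene, held 20.3 and 31.2 CPM in Klrg1Cre, against 32.5 and 17.4 CPM in control. Its high and low libraries were thus opposite in size between the groups, and its means were equal to within 1.03-fold in the authors' deposited table.

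Both genes with a lower mean in Klrg1Cre at an unadjusted p below 0.05 encode enzymes that lengthen fatty acids. Elovl5, whose product elongates polyunsaturated fatty acids, held 13.3 CPM in both Klrg1Cre libraries (346 and 194 reads), against 19.2 and 20.9 CPM in the control libraries (641 and 668 reads). The groups did not overlap, and neither did the exact Clopper-Pearson 95% intervals, which cover counting error only: they reached up to 14.8 and 15.3 CPM in Klrg1Cre and down to 17.7 and 19.3 CPM in control. In the authors' deposited table Elovl5 was 1.51-fold lower (unadjusted p = 0.00535, adjusted p = 0.427). By limma the log2 difference on the CPM + 1 scale was -0.56 (SE 0.16, adjusted p = 0.321). Elovl6, whose product elongates the saturated chains that fatty acid synthase releases, held 2.31 and 3.57 CPM in Klrg1Cre (60 and 52 reads), against 4.37 and 5.10 CPM in control (146 and 163 reads). Both Klrg1Cre libraries were below both control libraries, though the counting interval of the smaller Klrg1Cre library, 2.67 to 4.68 CPM, reached into that of the larger control library, 3.69 to 5.14 CPM. Its mean was 1.61-fold lower in the authors' deposited table (unadjusted p = 0.0494, adjusted p = 0.700), and its log2 ratio of -0.69 was -0.41 when the larger Klrg1Cre library was left out and -1.04 when the smaller was.

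Elovl1, whose product makes very long chains, did not share this direction, with 44.9 against 40.6 CPM in the authors' deposited table (unadjusted p = 0.303). Each round of elongation also needs a reductase, a dehydratase and a second reductase. Of these, the dehydratase gene Hacd3 held 22.6 and 29.4 CPM in Klrg1Cre, against 33.5 and 40.4 CPM in control, 1.42-fold lower in the authors' deposited table (unadjusted p = 0.0164, adjusted p = 0.599). Its groups did not overlap. Hsd17b12, Tecr and Hacd2, of the same cycle, were between 1.06-fold and 1.09-fold lower there, with unadjusted p from 0.549 to 0.683.

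The desaturase gene Fads1, which acts on polyunsaturated fatty acids alongside Elovl5, had the opposite direction. It held 7.15 and 5.70 CPM in Klrg1Cre, against 3.86 and 5.01 CPM in control, without overlap, and was 1.45-fold higher in the authors' deposited table (unadjusted p = 0.0718, adjusted p = 0.730). Fads2, the desaturase gene of the step before, was near the limit of detection: 16 reads and 1 read in Klrg1Cre, and 0 and 16 reads in control. The libraries of each group thus lay farther apart than the groups, and the authors' deposited table gave 0.342 against 0.2504 CPM (unadjusted p = 0.248, adjusted p = 0.817). A count of 0 allows up to 3 reads in that library, for counting error only. Scd2, encoding a stearoyl-CoA desaturase, was listed at 9.39 against 9.45 CPM in the authors' deposited table, and its libraries were not recovered. Whether reads were shared with other Scd genes was not tested.

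Of the acyl-CoA synthetase genes, whose products activate fatty acids, Acsl5 had the smallest p. It held 47.1 and 37.7 CPM in Klrg1Cre, against 32.7 and 35.9 CPM in control, so every Klrg1Cre library was above every control library. The authors' deposited table gave a 1.24-fold higher mean (unadjusted p = 0.0872, adjusted p = 0.737). Acsl4, which prefers arachidonic acid, was listed there at 6.79 against 6.06 CPM, and Acsl3 at 0.311 against 0.522 CPM, both with unadjusted p above 0.2.

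For triglyceride storage, Dgat1, encoding the acyltransferase of the last step, held 24.5 and 21.2 CPM in Klrg1Cre, against 25.8 and 28.6 CPM in control. The groups did not overlap, and the authors' deposited table gave a 1.19-fold lower mean (unadjusted p = 0.141, adjusted p = 0.764). Dgat2, which encodes an unrelated enzyme of the same reaction, held 0.922 and 1.03 CPM against 0.659 and 2.10 CPM, with the control libraries farther apart than the groups. Plin2, encoding the coat protein of lipid droplets, had means of 111.7 and 98.0 CPM in the authors' deposited table (unadjusted p = 0.325), and its Klrg1Cre libraries held 128.4 and 95.0 CPM.

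**Figure D3:**
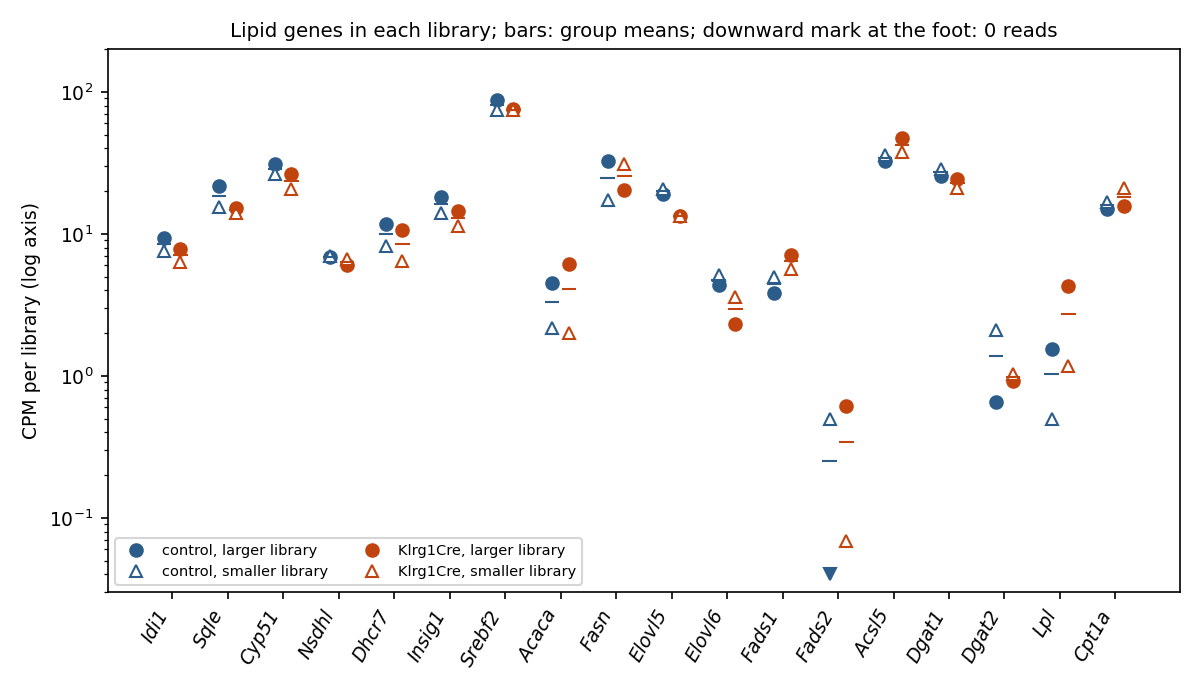
CPM on a log axis in each of the 4 libraries for the 18 lipid genes whose libraries were recovered; circles are the larger and open triangles the smaller library of a group, and short bars are group means. Elovl5 and Elovl6 are lower and Fads1 and Acsl5 higher in both Klrg1Cre libraries, whereas Acaca, Fasn and Lpl differ more within a group than between the groups.

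Among genes of fatty acid uptake and transport, 3 of 4 had higher means in Klrg1Cre, none past a threshold. Lpl, encoding the lipase that frees fatty acids from lipoproteins, held 4.30 and 1.17 CPM in the larger and smaller Klrg1Cre libraries (112 and 17 reads), against 1.56 and 0.501 CPM in control (52 and 16 reads). The groups overlapped, since the smaller Klrg1Cre library lay below the larger control library. In the authors' deposited table the mean was 2.66-fold higher in Klrg1Cre (unadjusted p = 0.0948, adjusted p = 0.740). Its log2 ratio of 1.41 was 0.18 without the larger Klrg1Cre library and 2.45 without the larger control library. By limma its log2 difference on the CPM + 1 scale was 0.79 (adjusted p = 0.703). It was 1.44 when the smaller Klrg1Cre library was left out, a fit in which the group holds only the library with the higher Lpl. Cd36, the gene of a fatty acid and scavenger receptor, was listed at 8.75 against 12.8 CPM (unadjusted p = 0.127) in the authors' deposited table. Fabp5, a fatty acid carrier gene, had means of 103.5 against 88.6 CPM (unadjusted p = 0.524) there. Cpt1a, encoding the transferase that admits fatty acids to mitochondria for oxidation, held 15.8 and 20.9 CPM against 15.1 and 16.8 CPM, with overlapping groups.

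Alveolar macrophages also express Lpl, Cd36, Fabp5 and Plin2, and macrophage transcripts were present in the sort. Of 27 macrophage and monocyte markers outside the lipid set, 25 were listed in the authors' deposited table, summing to 2158 CPM in Klrg1Cre, against 2844 CPM in control. Most of this was Chil3, at 1124 against 1932 CPM (unadjusted p = 0.0165, adjusted p = 0.599); the other 24 summed to 1034 and 912.03 CPM. The 15 markers with recovered libraries summed to 688.1 and 385.5 CPM in the larger and smaller Klrg1Cre libraries. Their sums in control were 425.9 and 487.4 CPM. Most of each sum was Ctsd, at 538.3, 308.4, 331.5 and 369.5 CPM in the same order. The larger Klrg1Cre library had the highest marker sum and the highest Lpl and Acaca CPM. In control, the smaller library had the higher marker sum. Lpl was at 0.501 CPM there and 1.56 CPM in the larger, and Acaca at 2.19 and 4.49 CPM. Among the 15 markers, 2 (Mrc1 and Car4) were higher in the larger library of both groups, as Lpl and Acaca were. No marker was higher in the smaller library of both. Over all recovered genes 27.3% had the first order. Of the 25, 16 had higher and 9 lower means in Klrg1Cre. Lower means included Mrc1 (1.98 against 2.72 CPM), Adgre1 (1.88 against 2.60 CPM) and C1qb (4.68 against 6.32 CPM) in the authors' deposited table. The alveolar macrophage markers Marco and Krt79 were at 0 in both control libraries and at up to 0.538 and 0.461 CPM in Klrg1Cre, and Car4 held 1.69 and 0.343 CPM against 0.300 and 0.0939 CPM. Their part in the values of Lpl and the other genes was not tested. In such bulk libraries, fewer cells of a type and less RNA per cell cannot be told apart.

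Counted over the set, both Klrg1Cre libraries were below both control libraries for 6 of the 18 recovered genes (Sqle, Cyp51, Nsdhl, Elovl5, Elovl6 and Dgat1) and above for 2 (Fads1 and Acsl5). Over all 5351 recovered genes the shares were 18.3% below and 19.3% above. With 2 libraries per group the smallest two-sided exact permutation p for 1 gene is 0.333, so these counts describe the libraries and carry no test.

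Other lipid genes outside the set gave a similar picture. Of 80 listed genes in lists of sterol handling, fatty acid synthesis, lipid droplets, oxidation and lipid sensing, 0 had an adjusted p below 0.05 in the authors' deposited table, 3 had a higher and 3 a lower mean at an unadjusted p below 0.05 (3.72% and 3.37% of all genes, so near the background), and the median log2 ratio was -0.01. The smallest p belonged to Hilpda, which encodes an inhibitor of triglyceride breakdown on lipid droplets, with means of 11.2 against 5.88 CPM in the authors' deposited table, 1.90-fold higher (unadjusted p = 0.00264, adjusted p = 0.321). Higher as well were Etfb, encoding an electron carrier of fatty acid oxidation (31.7 against 24.3 CPM, unadjusted p = 0.0339), and the fatty acid receptor gene Ppard (1.32 against 0.457 CPM, unadjusted p = 0.0498) in the authors' deposited table. Lower, besides Hacd3, were the cholesterol exporter gene Abca1, which held 0.538 and 0.412 CPM in Klrg1Cre, against 1.08 and 2.28 CPM in control, and Lpin2, encoding a phosphatidate phosphatase. The authors' deposited table gave unadjusted p of 0.0176 and 0.0157 for them, with adjusted p of 0.606 and 0.596. Among the 18 genes of fatty acid oxidation, 9 had higher and 9 lower means in the authors' deposited table, and the median log2 ratio was 0.01.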

How the data were processed

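RNA of sorted lung Th2 cells was sequenced in 4 samples. The submitters' processing notes name STAR, Partek and the mm9 build, without versions; the model behind the test is not given in the sources used here. The deposited group means are in CPM with an offset of 0.0001 added by the authors, per the file headers and values. The deposited p-values and adjusted p-values are the authors', and the adjusted ones equalled a Benjamini-Hochberg adjustment over all 11883 genes. The deposited ratio was the quotient of both means in all 11883 rows, the deposited fold change score is the same ratio with a sign, and the deposited signal column of summed CPM was not used. Fold changes and unadjusted and adjusted p in the text are the authors' unless limma is named.

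Library totals and reads were recovered from the means to within 1e-09 reads, for 5351 genes (45.0%) in both groups. Because most genes were not recovered, no count model was fitted; limma 3.58.1 (R 4.3.3, trended variance, log2(CPM + 1), mean of at least 1 CPM) was fitted on 4242 genes. Both steps were tested on simulated data. Log2 ratios were computed in Python 3.11.15 from the deposited means. Of the 35 lipid genes, 33 had a mean of at least 1 CPM and 28 of at least 5 CPM; none was left out of the counts. Whether each sample is a mouse of its own is not in the labels, and the p-values reflect only how far these samples differ, possibly for technical reasons.

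The members, roles and lists were chosen with earlier results of these data known. Every listed member is named, with full values for those with an unadjusted p below 0.05 and, in roles without one, that of the smallest p. From other pathway and marker lists, the genes with an unadjusted p below 0.05 and each marker list's highest mean are named. Ebp, Lbr, Msmo1, Sc5d, Hsd17b7, Tm7sf2, Hsd17b12, Tecr, Hacd2, Marco, Krt79, Car4, Mrc1, Adgre1, C1qb and Ctsd were added after their values were seen. Promoter windows and symbols are RefSeq's (GRCm38.p6), matched by symbol; the motifs were chosen after the values were seen. A gene of the sterol lists is not reported here.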

Additional observations from a re-analysis of the deposited data

How the results depend on the processing

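No paired analysis was possible because the table gives means per genotype and the recovered libraries carry no replicate number. Under other pseudocounts, limits on the mean, scalings and left-out libraries, 150 recomputed values stayed within the spread between libraries or within 1.5 times the main count and 16 did not. This spread was wide for some genes, so a value within it could still change sign. Acaca, at 0.29, counted as within it at -0.14 without the smaller control library. Rescaling to the summed CPM of the listed genes other than Rn45s moved every log2 ratio by 0.03, and centring on all genes by 0.01. Reads on no listed gene, 14.7% in Klrg1Cre and 30.8% in control, were outside that sum, and a rescaling that includes them was not run. Both shifts were below the smallest spread, 0.06 for Elovl5, so these rescaled ratios could not count as moved. With members of at least 5 CPM, 1 gene in place of 2 was lower at an unadjusted p below 0.05 (Elovl5) and 0 in place of 1 higher, and the median of the mevalonate genes was -0.23 in place of 0.01. By limma, 0 were higher, since Mvk had no recovered libraries. The 18 recovered genes had a median log2 ratio of -0.16 on the log2(CPM + 1) scale, against 0.02 for all 35 from the deposited means. The recovered genes thus leaned lower than the whole set. Leaving out 1 library at a time, medians on the log2(CPM + 1) scale ranged from -0.28 to -0.08 for all 18 recovered genes, from -0.38 to -0.09 for Idi1 of the mevalonate genes, from -0.41 to -0.09 for 4 squalene and sterol genes, from -0.34 to -0.05 for 2 regulators, from 0.13 to 0.45 for Acsl5 of the acyl-CoA synthetases, from -0.22 to 0.61 for 2 fatty acid synthesis genes, from -0.39 to -0.012 for 4 desaturation and elongation genes, from -0.48 to 0.044 for 2 storage genes and from 0.23 to 0.72 for 2 uptake genes. A limma fit without 1 library leaves a single library in a group, which is then assumed to vary like the others, so only an effect size is given. Without the smaller Klrg1Cre library the log2 difference of Lpl was 1.44. Depth limits the genes of low CPM, such as Fads2, Acsl3, Dgat2 and Lpl.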

Other observations

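Marker lists of T cells, other cell types and cell division gave the following means in the authors' deposited table, Klrg1Cre first. No gene was past an adjusted p of 0.05, and their part in the lipid gene values was not tested. The ILC2 list summed to 552.7 and 587.7 CPM. It includes Gata3 (293.9 against 221.4 CPM), a Th2 transcription factor gene, and Il1rl1 (59.1 against 68.0 CPM), encoding the sort marker T1/ST2. The sum is therefore not a measure of ILC2 in the sort. Its genes went in opposite directions: Klrg1 was at 4.19 against 48.4 CPM and Nmur1 at 7.73 against 2.40 CPM (adjusted p = 0.0701 for both in the authors' test). Arg1 (53.9 against 98.5 CPM) and Il2ra (19.5 against 27.6 CPM) were also lower at an unadjusted p below 0.05, and Gata3, Kit (1.29 against 0.356 CPM) and Calca (18.4 against 10.06 CPM) were higher. Of the T cell markers, Lck had the highest mean (243.1 against 259.3 CPM), and Zap70 (172.0 against 142.0 CPM) and Thy1 (95.04 against 75.3 CPM) had unadjusted p of 0.0429 and 0.0379.

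The 7 listed of 10 dendritic cell markers summed to 139.6 and 118.1 CPM, with H2-Ab1 at 50.7 against 38.9 CPM and H2-Aa at 17.2 against 12.9 CPM. Flt3, Clec9a and Cd209a were not listed. Macrophage marker Plet1 was at 0.654 against 0.0151 CPM. The 4 listed of 8 B cell markers summed to 1.72 and 3.18 CPM, with Cd79b highest. Granulocyte and mast cell markers, with 5 of 10 listed, summed to 13.03 and 12.3 CPM. Csf3r was at 4.37 against 3.10 CPM and Ccr3 at 2.89 against 5.58 CPM. Epithelial markers, with 9 of 12 listed, summed to 22.2 and 20.5 CPM. Abca3 was highest, Scgb1a1 was at 4.23 against 2.57 CPM and Epcam at 0.921 against 2.78 CPM. Only 2 of 9 endothelial and fibroblast markers were listed, summing to 18.2 and 12.2 CPM, almost all of it Pecam1, at 17.7 against 12.1 CPM. Cdh5, Kdr, Cldn5, Col1a2, Col3a1, Dcn and Pdgfra were not listed, so the sum describes Pecam1 rather than these cell types. Cell division genes summed to 229.7 and 227.1 CPM, with Mcm6 highest.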
